A study of Mus musculus with 18 samples.

Results

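The fibrillar collagens of types I, III and V were followed in carotid tissue after wire injury through the 6 genes that encode their chains. These are Col1a1 and Col1a2 for type I, Col3a1 for type III, and Col5a1, Col5a2 and Col5a3 for type V. They were chosen by symbol from a table of 35655 genes. Of these genes, 10312 passed the filter on low counts and were tested, and all 6 collagen genes were among them, although the libraries of days 0 and 28 held at most 7 counts of Col5a3.

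RNA was taken from laser-dissected carotid sections of male C57/BL6 mice of WT genotype and read as 3′ end tags (MACE-seq) in 18 libraries. Day 0, before injury, had 4 libraries, and after wire injury of the left carotid at 11 weeks of age day 7 had 4, day 14 had 3, day 21 had 4 and day 28 had 3. The right carotid served as control in the study, and 3 mouse numbers occur in both a day 0 and a day 21 label, so whether the day 0 vessels were taken from injured animals is not stated. The dissected area held the outer elastic lamina and the neointima, the tissue that grows on the inner side of an injured vessel. The media lay within it and day 0 has no neointima, so the levels are those of the dissected vessel wall. Vessels with thrombosis had been left out.

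Fibrillar collagens are triple helices of 3 chains that assemble side by side into banded fibrils. Type I gives the fibrils of the vessel wall their tensile strength, type III forms thinner fibrils together with it in distensible tissue, and type V is a minor component inside the fibril that takes part in starting fibrils and limiting their width. Fibroblasts and smooth muscle cells make these collagens, and smooth muscle cells that leave the contractile state are known to make more of them.

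The libraries held 440675 to 878310 counts. Floors given for a count of 0 cover counting error only, and the confidence intervals of fold changes cover the spread between libraries. Levels are in CPM, the counts scaled to a common library size with TMM factors. Since a MACE tag marks the end of a transcript, CPM are not divided by length, and levels are compared between days and not between genes. Differences were tested with edgeR's quasi-likelihood method in 1 fit over all libraries, and a gene counted as changed where its p, after Benjamini-Hochberg adjustment over the 10312 genes, was under 0.05. Each label carries 1 mouse number, while the paper describes the neointima samples as pooled and collected several sections before RNA extraction. Whether a library holds tissue of 1 mouse or of more is therefore not settled. The p-values measure the spread between these libraries, whichever holds. In such bulk samples, fewer cells of a type and less RNA per cell cannot be told apart. Comparisons with day 0 share the same 4 libraries. Statements that the libraries of different days did or did not overlap are descriptions only. The share of all genes tested that separated in this way is not given. Day 0 replicate 1 and day 21 replicate 1 had the highest Col1a1 of their days, and day 14 replicate 2 had the highest level of its day for 6 of the 6 genes. Results that rest on these libraries are given with and without them.

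On GRCm39 (GENCODE vM39), Col1a1 lies on chromosome 11 from 94827050 to 94843868, Col1a2 on chromosome 6 from 4504814 to 4541555 and Col5a1 on chromosome 2 from 27776397 to 27929526, all on the plus strand. Col5a3 lies on the minus strand of chromosome 9 from 20681337 to 20726418. Col3a1, from 45350698 to 45395840 on the plus strand of chromosome 1, and Col5a2, from 45412554 to 45542442 on the minus strand, are neighbours that point at each other, with 16713 bases and 0 annotated genes between their ends. Exons of Col1a2, Col3a1 and Col5a1 overlap annotated genes, for which the count table has no entry, and whether counting used the strand is not given in the sources used here.

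The promoters differed in base composition. Over the 250 bases before the start of the transcript, the GC content was 75.6% for Col5a1, 64.8% for Col1a1, 62.0% for Col1a2, 55.6% for Col5a3, 36.0% for Col5a2 and 35.2% for Col3a1, against a median of 53.2% over 21574 promoters of protein-coding genes. The neighbours Col3a1 and Col5a2 were thus the 2 genes below that median, and the 4 others lay above it. The promoters of Col1a1 and Col3a1 are shown because Col1a1 had the largest rise of the abundant chains and Col3a1 is the one gene of type III. Capitals mark matches to CCAAT (written ATTGG where the match is on the other strand) and TATAAA.
Col1a1, chr11:94826800-94827049, plus strand: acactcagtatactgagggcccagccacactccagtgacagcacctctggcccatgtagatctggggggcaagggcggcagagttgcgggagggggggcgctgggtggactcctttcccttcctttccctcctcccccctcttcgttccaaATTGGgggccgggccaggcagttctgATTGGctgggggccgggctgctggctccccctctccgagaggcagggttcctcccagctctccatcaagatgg
Col3a1, chr1:45350448-45350697, plus strand: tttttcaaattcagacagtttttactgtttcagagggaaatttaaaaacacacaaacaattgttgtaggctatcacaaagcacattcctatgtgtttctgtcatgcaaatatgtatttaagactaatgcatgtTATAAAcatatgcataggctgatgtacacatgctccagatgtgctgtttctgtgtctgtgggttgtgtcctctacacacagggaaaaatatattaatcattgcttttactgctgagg
Searched on both strands, CCAAT matched at 99 and 73 bases before the start in Col1a1 and at 67 bases in Col5a3, and 36.4% of all promoters and 3499 of the 9996 promoters of tested genes held a match. TATAAA matched in Col3a1 at 117 bases before the start, against 11.9% of all promoters and 7.1% of those of tested genes. GGGCGG matched in 4 of the 6 genes (36.4% and 50.4%) and CAGAC in 3 of the 6 (41.3% and 40.9%). These matches describe the letters only.

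Together the 6 genes took 0.729% ± 0.186 (n = 4, SD) of a library's counts on day 0, 1.54% ± 0.209 (n = 4, SD) on day 7, 2.78% ± 0.866 (n = 3, SD) on day 14 and 3.78% ± 0.945 (n = 4, SD) on day 21. On day 28 the share was 0.980% ± 0.134 (n = 3, SD). Every library of days 7, 14 and 21 lay above every day 0 library, while those of day 28 (0.852% to 1.12%) overlapped the day 0 range of 0.612% to 1.01%.

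Type I collagen genes stood highest on day 21. Col1a1 encodes the more frequent chain of the type I molecule. Its level was 3953, 2031, 2143 and 2071 CPM in the day 0 libraries, listed by replicate, and 5249, 7163, 7707 and 7804 CPM on day 7. It was 9348, 15424 and 10198 CPM on day 14, then 27256, 17534, 10743 and 17665 CPM on day 21, and 2719, 2550.2 and 3717 CPM on day 28. Libraries of days 7, 14 and 21 lay above all day 0 libraries, days 14 and 21 overlapped, and day 28 overlapped day 0 because day 0 replicate 1 was high. The log2 fold change against day 0 was 1.45 on day 7 (standard error, SE, 0.26, adjusted p = 2.7e-04 from edgeR), 2.19 on day 14 (SE 0.28, adjusted p = 1.99e-05) and 2.84 on day 21 (SE 0.28, adjusted p = 4.05e-07). In the order of day means, 21, 14, 7, 28 and 0, the one neighbouring pair that differed past the threshold was days 7 and 28, with day 28 lower by a log2 fold change of -1.22 (SE 0.29, adjusted p = 0.00546 from edgeR).

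Col1a2 encodes the partner chain of type I. Its level was 3357, 2020.3, 2356 and 2218 CPM on day 0 and 3379.6, 4104, 4437 and 5259.8 CPM on day 7. It was 7209, 11838 and 7772 CPM on day 14, then 15288, 13001, 8097 and 14479.6 CPM on day 21, and 3076, 3508 and 3931 CPM on day 28. Up to day 14 the days did not overlap, since all day 7 libraries lay above day 0, though by little for day 7 replicate 1 against day 0 replicate 1, and all day 14 libraries lay above day 7. Days 14 and 21 overlapped, and day 28 overlapped days 0 and 7. Against day 0, the log2 fold change was 0.79 on day 7 (SE 0.22, adjusted p = 0.0128 from edgeR), 1.85 on day 14 (SE 0.24, adjusted p = 2.03e-05) and 2.35 on day 21 (SE 0.23, adjusted p = 4.81e-07). The day means fell in the order 21, 14, 7, 28 and 0, and days 14 and 7 were the neighbours that differed past the threshold.

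Type III collagen, a single-gene product of Col3a1 that is the second main fibril collagen of arteries, was at its highest on both day 14 and day 21. The Col3a1 level was 2434, 1829, 1528 and 1938.2 CPM on day 0 and 2575, 3517, 2249 and 3621 CPM on day 7. It was 5947, 7237 and 4867 CPM on day 14, then 5655, 7302, 6122 and 6210.2 CPM on day 21, and 2409, 2248 and 2275 CPM on day 28. On day 7 replicate 3 lay below day 0 replicate 1, so these days overlapped, whereas the libraries of days 14 and 21 all lay above those of days 0, 7 and 28. The log2 fold change against day 0 was 0.63 on day 7 (SE 0.20, adjusted p = 0.0244 from edgeR), 1.64 on day 14 (SE 0.21, adjusted p = 1.99e-05) and 1.71 on day 21 (SE 0.20, adjusted p = 6.42e-06). Days 14 and 7 were again the neighbours, in the order 21, 14, 7, 28 and 0, that differed past the threshold.

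Among the type V genes, Col5a1 encodes the chain that most type V molecules hold in more than 1 copy. Its level was 244, 277, 297 and 234 CPM on day 0 and 358, 539, 652 and 723 CPM on day 7. It was 641, 1006 and 665 CPM on day 14, then 641, 634, 617 and 584 CPM on day 21, and 353, 301 and 374 CPM on day 28. All libraries of every later day, day 28 included, lay above those of day 0, and the 4 day 21 libraries were close together within the range of day 7. On day 28 Col5a1 was nevertheless not called against day 0 (log2 fold change 0.38, SE 0.24, adjusted p = 0.476 from edgeR). Col5a1 had a log2 fold change against day 0 of 1.11 on day 7 (SE 0.22, adjusted p = 7.85e-04 from edgeR), 1.55 on day 14 (SE 0.24, adjusted p = 1.75e-04) and 1.23 on day 21 (SE 0.22, adjusted p = 9.51e-04). The order of its day means was 14, 21, 7, 28 and 0, and days 7 and 28 were the neighbours past the threshold, with day 28 lower by a log2 fold change of -0.73 (SE 0.24, adjusted p = 0.0448 from edgeR). That call was lost in 14 of the 18 fits that left out 1 library, namely each library of days 21 and 28, day 0 replicates 2 and 4, day 7 replicates 2, 3 and 4, and day 14 replicates 1 and 3 (adjusted p up to 0.148, and 0.0187 to 0.155 over all alternatives).

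Col5a2 encodes the second chain of the common type V molecule. Its level was 334, 209, 347 and 308 CPM on day 0 and 509, 613, 676 and 499 CPM on day 7. It was 728, 1332 and 725 CPM on day 14, then 895, 1053, 879.8 and 705 CPM on day 21, and 266, 289 and 236 CPM on day 28. Each library of days 7, 14 and 21 lay above day 0, and day 28 lay within the range of day 0. Against day 0, the log2 fold change was 0.94 on day 7 (SE 0.23, adjusted p = 0.00469 from edgeR), 1.63 on day 14 (SE 0.25, adjusted p = 1.57e-04) and 1.56 on day 21 (SE 0.23, adjusted p = 1.34e-04). In the order 14, 21, 7, 0 and 28, the neighbours that differed past the threshold were days 7 and 0. In the authors' normalised table Col5a2 alone of the 6 genes was divided by a further factor beside that of the library. This further factor was 0.270 in day 0 replicate 2, which raised the Col5a2 value there, 0.505 in day 28 replicate 3 and 0.801 to 1.22 in the others. Over all genes in that table, 60.3% of values lay within 1% of the library's factor, so departures from it were not particular to Col5a2. Tested with limma on that table, Col5a2 was not called on day 7 or 14 (adjusted p = 0.0790 and 0.0781) or between days 28 and 21 (adjusted p = 0.0685) or 28 and 14 (adjusted p = 0.0819). Over all alternatives its adjusted p ran from 6.93e-04 to 0.151 on day 7, from 3.71e-08 to 0.0781 on day 14, from 3.38e-08 to 0.0685 between days 28 and 21 and from 2.9e-07 to 0.0819 between days 28 and 14.

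Col5a3 encodes a type V chain with a narrower tissue distribution, and it was the one gene of the 6 with its highest mean on day 7. It had 4, 1, 2 and 6 counts on day 0, or 5.96, 1.195, 2.98 and 7.87 CPM, and 24.9, 79.1, 277 and 51.7 CPM on day 7. It was at 1.5996, 131 and 39.1 CPM on day 14, at 17.7, 44.4, 13.2 and 6.98 CPM on day 21, and at 10.1 CPM in 1 library of day 28, with 0 counts in the other two, which allows up to 4.96 and 4.79 CPM. The day 7 libraries lay above all day 0 and day 28 libraries, spread widely among themselves, and day 14 replicate 1 was as low as day 0. The log2 fold change against day 0 was 4.54 on day 7 (SE 0.97, adjusted p = 0.00132 from edgeR) and 3.61 on day 14 (SE 1.00, adjusted p = 0.0273). On day 21 it was 2.15 (SE 1.00, adjusted p = 0.200). No neighbouring days in the order 7, 14, 21, 0 and 28 differed past the threshold, while day 28 lay below day 7 (log2 fold change -4.85, SE 1.14, adjusted p = 0.00508 from edgeR).

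**Figure D1:**
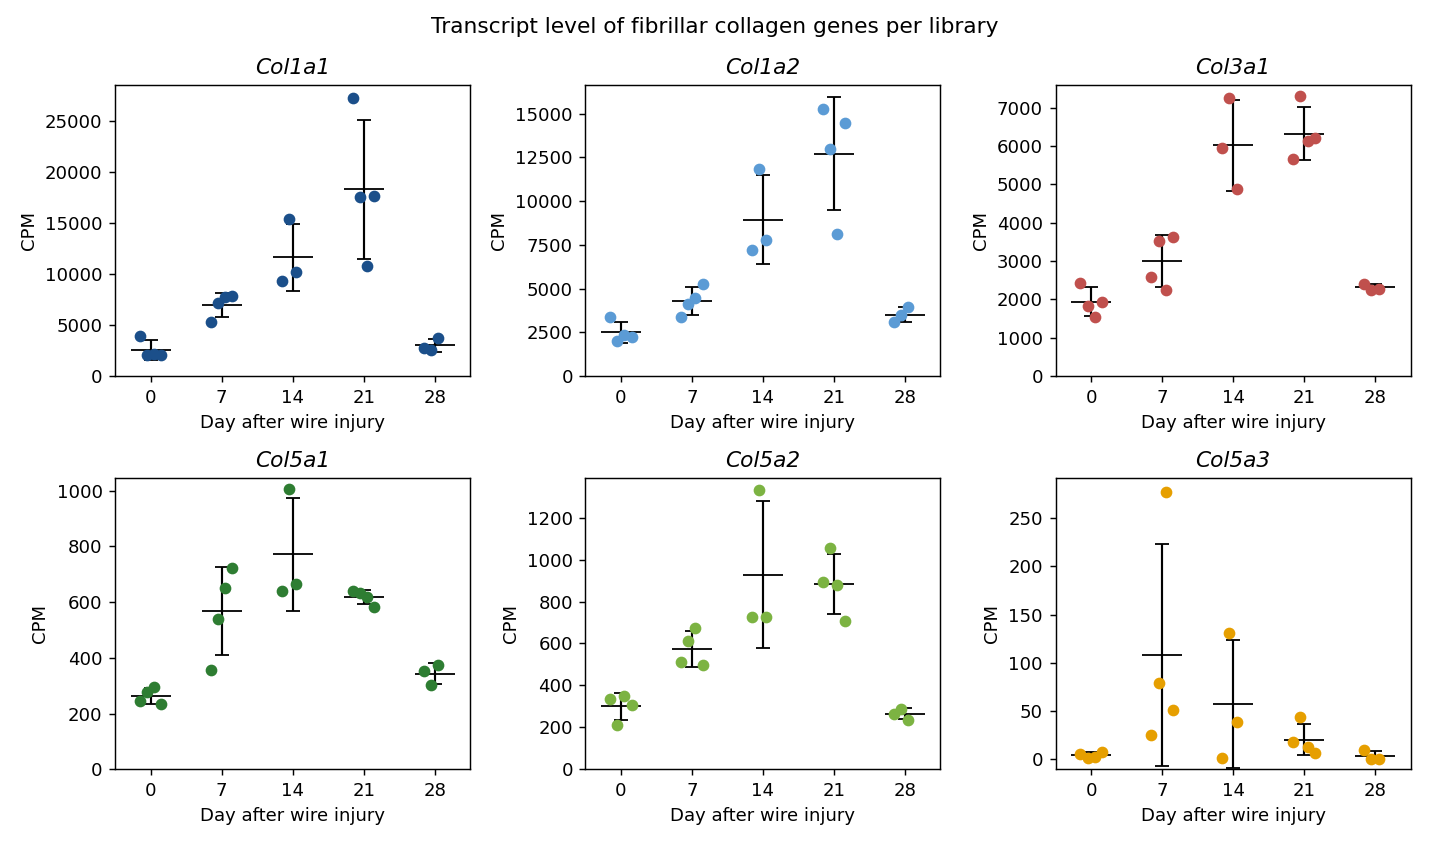
CPM of each collagen gene (y axis, linear) by day after injury (x axis), with 1 point per library and bars for the mean and SD. Col1a1 and Col1a2 have their highest mean on day 21, Col3a1 is about level on days 14 and 21, Col5a1 and Col5a2 have their highest mean on day 14, and Col5a3 has its on day 7, where 1 library reaches 277 CPM.

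By day 7 all 6 collagen genes had risen, when 11.3% of the genes tested were higher than on day 0 and 8.53% lower, 19.8% in either direction. Their median log2 fold change was 1.02, against 0.07 over all genes tested. The Col1a2 call was lost without day 0 replicate 2 (adjusted p = 0.0552, with 0.00353 to 0.281 over all alternatives). That of Col3a1 was lost without any one of day 0 replicates 2, 3 and 4 or day 7 replicates 2 and 4 (adjusted p up to 0.127, with 0.00682 to 0.433 over all alternatives). With the mouse number as a block, 2 of the 6 genes, Col1a1 and Col5a1, were called, and the adjusted p was 0.281 for Col1a2, 0.433 for Col3a1, 0.151 for Col5a2 and 0.101 for Col5a3 (for the last, 7.91e-13 to 0.101 over all alternatives). That block ties 3 of the 4 day 0 libraries to day 21, so that day 0 replicate 1, the highest for both type I genes and Col3a1, weighs most in comparisons with day 7.

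On day 14 again 6 of the 6 were higher than on day 0, as were 4.80% of the genes tested (1.42% were lower, 6.22% in either direction), and their median log2 fold change was 1.74, compared with 0.05 over all genes. The call of Col5a3 was lost without day 0 replicate 1, 2 or 3 or without day 14 replicate 2 (adjusted p up to 0.417, and 2.04e-07 to 0.417 over all alternatives), with the mouse number as a block (adjusted p = 0.372) and with the 2 libraries highest in Col1a1 left out (adjusted p = 0.0673). On day 21, 5 of the 6 were higher, Col5a3 being the exception (called without the filter on low counts, adjusted p = 0.0088 from edgeR, with 0.0088 to 0.511 over all alternatives), against 5.92% of the genes tested higher, 2.93% lower and 8.84% in either direction. The median log2 fold change was 1.93 against 0.07, and these 5 calls held with each library left out and with the mouse block.

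**Figure D2:**
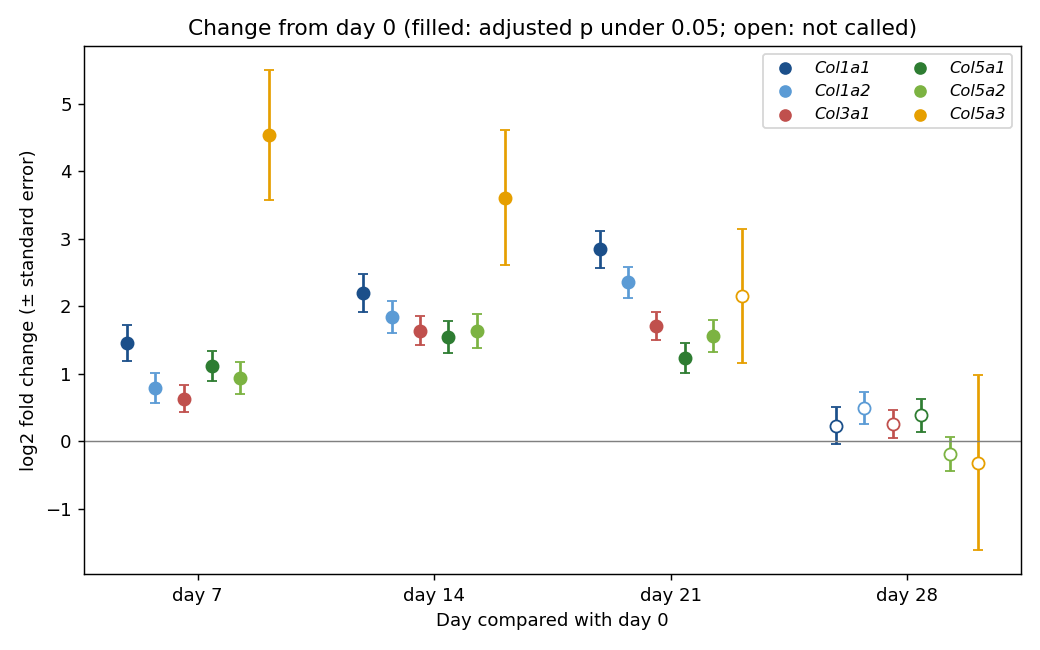
Log2 fold change against day 0 with its standard error (y axis) for each gene on days 7, 14, 21 and 28 (x axis), from edgeR, with filled points for adjusted p under 0.05. Points are filled for 6 genes at days 7 and 14, for 5 at day 21 and for 0 at day 28, and Col1a1 climbs from 1.45 to 2.84 by day 21 while Col5a1 stays between 1.11 and 1.55.

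On day 28 none of the 6 was called against day 0 by edgeR, where 1.34% of genes were called in either direction, 0.970% higher and 0.369% lower. DESeq2 also called 0 of the 6, and Col1a2 was the one with an unadjusted p under 0.05 (0.0487). The log2 fold changes and their 95% confidence intervals were 0.23 (-0.37 to 0.83) for Col1a1, 0.49 (-0.02 to 1.01) for Col1a2, 0.26 (-0.20 to 0.72) for Col3a1, 0.38 (-0.13 to 0.90) for Col5a1 and -0.18 (-0.73 to 0.36) for Col5a2. The interval of Col5a3 was wider, from -3.12 to 2.49. Differences inside these intervals are not excluded by these libraries.

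After day 7, Col1a2 and Col3a1 rose further, and no type V gene passed the test. Between days 7 and 14, Col1a2 rose by a log2 fold change of 1.06 (SE 0.24, adjusted p = 0.0203 from edgeR) and Col3a1 by 1.01 (SE 0.21, adjusted p = 0.0137), which made 2 of the 6 against 1.33% of the genes tested higher, 0.330% lower and 1.66% in either direction. Col1a1 (0.74, adjusted p = 0.248), Col5a2 (0.69, adjusted p = 0.206), Col5a1 (0.44, adjusted p = 0.556) and Col5a3 (-0.92, adjusted p = 0.837) were not called. This step rested on few libraries. The Col1a2 call was lost without day 7 replicate 1 or 2 or day 14 replicate 2 (adjusted p up to 0.127, with 5.51e-04 to 0.127 over all alternatives) and the Col3a1 call without day 14 replicate 1 or 2 (adjusted p up to 0.0612, with 2.49e-04 to 0.0724 over all alternatives), so that 0 of the 6 were called without day 14 replicate 2.

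From day 7 to day 21, a comparison of 4 libraries with 4, Col1a1, Col1a2 and Col3a1 were higher (3 of the 6, against 4.03% of the genes tested higher, 3.23% lower and 7.26% in either direction), and these calls held with each library left out. Col1a2 rose by a log2 fold change of 1.57 (SE 0.23, adjusted p = 1.11e-04 from edgeR) and Col3a1 by 1.08 (SE 0.20, adjusted p = 0.00118). The type V genes did not pass, with 0.62 for Col5a2 (SE 0.23, adjusted p = 0.105), 0.12 for Col5a1 (SE 0.22, adjusted p = 0.828) and -2.38 for Col5a3 (SE 0.84, adjusted p = 0.0875). With only these 2 days in the fit, Col5a2 (0.66, adjusted p = 0.0477, with 0.0477 to 0.792 over all alternatives) and Col5a3 (-2.34, adjusted p = 0.0350, with 1.8e-04 to 0.600 over all alternatives) passed as well, and Col5a3 also did without day 14 replicate 1 (adjusted p = 0.0446).

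Between days 14 and 21, edgeR called 0 of the 10312 genes (0.00%), and DESeq2 called 0 of the 6 collagen genes. At an unadjusted p under 0.05 there were 421 genes, among them Col1a1, with a log2 fold change of 0.65 (95% confidence interval 0.04 to 1.26), and Col1a2, with 0.51 (-0.01 to 1.03, an interval on the 13 residual degrees of freedom, which is wider than the test with its shared estimate of spread). Those of Col3a1 (0.07), Col5a1 (-0.32) and Col5a2 (-0.07) had intervals that held 0. A higher level of type I on day 21 than on day 14 thus did not pass the test.

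After day 21, the fall passed the edgeR test for the genes of types I and III and for 1 chain of type V. Between days 21 and 28, Col1a1 fell by 2.61 on the log2 scale (SE 0.31, adjusted p = 7.97e-05 from edgeR), or 6.11-fold. Col1a2 fell by 1.86 (SE 0.25, adjusted p = 6.17e-04), Col5a2 by 1.74 (SE 0.26, adjusted p = 0.00128) and Col3a1 by 1.45 (SE 0.22, adjusted p = 0.00128). These 4 of the 6 genes compare with 0.572% of the genes tested that were lower, 0.107% higher and 0.679% in either direction. All day 28 libraries of Col1a1, Col1a2, Col3a1, Col5a1 and Col5a2 lay below all day 21 libraries. The share of all genes tested that separated in this way is not given here, so this is a description only. Col5a1 was not called by edgeR (log2 fold change -0.85, SE 0.24, adjusted p = 0.0955) and was by DESeq2 (adjusted p = 0.0246, with 0.0246 to 0.290 over all alternatives). Col5a3 was not called (-2.47, SE 1.16, adjusted p = 0.313), except without the filter on low counts (adjusted p = 0.0257, with 0.0257 to 0.531 over all alternatives).

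Against day 7, day 28 was lower for Col1a1, Col5a1, Col5a2 and Col5a3 (4 of the 6, against 8.05% of the genes tested lower, 6.40% higher and 14.4% in either direction), with log2 fold changes of -1.22, -0.73, -1.12 and -4.85. Col1a2 (-0.29, adjusted p = 0.471) and Col3a1 (-0.37, adjusted p = 0.273) were not called between these days. Against day 14, day 28 was lower for 5 of the 6, against 0.659% of the genes tested lower, 0.0388% higher and 0.698% in either direction, by log2 fold changes of -1.17 for Col5a1 to -1.96 for Col1a1. The calls of Col1a2 and Col5a1 in this comparison were both lost without day 14 replicate 2, day 28 replicate 2 or day 28 replicate 3 (adjusted p up to 0.157 and 0.299, with 2.09e-05 to 0.157 and 0.00159 to 0.299 over all alternatives), and the mouse block also ended that of Col5a1 (adjusted p = 0.0554). Col5a3 (-3.93, adjusted p = 0.110) passed without day 14 replicate 1 (adjusted p = 0.0241) or day 28 replicate 1 (adjusted p = 0.0361), with 7.06e-06 to 0.590 over all alternatives.

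The day means can also be set on each gene's own scale. A share on this scale depends on the height of the highest day too, so it does not show which gene rose first. The log2 fold change on day 7 was 1.45 for Col1a1, 1.11 for Col5a1 and 0.94 for Col5a2. It was 0.79 for Col1a2, 0.63 for Col3a1 and 4.54 for Col5a3. Of the rise from the day 0 mean to the highest day mean, 60.1% had been reached by day 7 for Col5a1 and 43.7% for Col5a2, against 28.1% for Col1a1, 24.1% for Col3a1 and 17.7% for Col1a2. With each library left out in turn, the share ran from 49.9% to 78.1% for Col5a1 and from 37.6% to 47.6% for Col5a2, and the ranges of Col1a1 (24.3% to 34.7%), Col3a1 (19.3% to 29.7%) and Col1a2 (14.5% to 20.7%) lay below both. Such ranges show the weight of single libraries and do not measure sampling spread. By day 14, Col3a1 had reached 93.0% of its rise, Col1a2 63.1% and Col1a1 57.8%. With each library left out, these shares ran from 79.1% to 100%, from 48.9% to 71.5% and from 45.9% to 71.3%. Col5a3 stood at its highest mean on day 7 and kept 50.7% of that rise on day 14, a share that ran from 15.3% to 100% with each library left out.

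The day with the highest mean was day 21 for Col1a1 and Col1a2 and day 14 for Col5a1 in 18 of 18 sets with 1 library left out. It was day 21 for Col3a1 in 16 sets and day 14 in 2, day 14 for Col5a2 in 16 and day 21 in 2, and day 7 for Col5a3 in 17 and day 14 in 1. Mean levels on day 28 were 16.4% of the highest day for Col1a1, 27.6% for Col1a2, 28.4% for Col5a2, 36.5% for Col3a1 and 44.5% for Col5a1. These are descriptions of day means, and the direct tests between days given above do not settle the order of days 14 and 21.

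**Figure D3:**
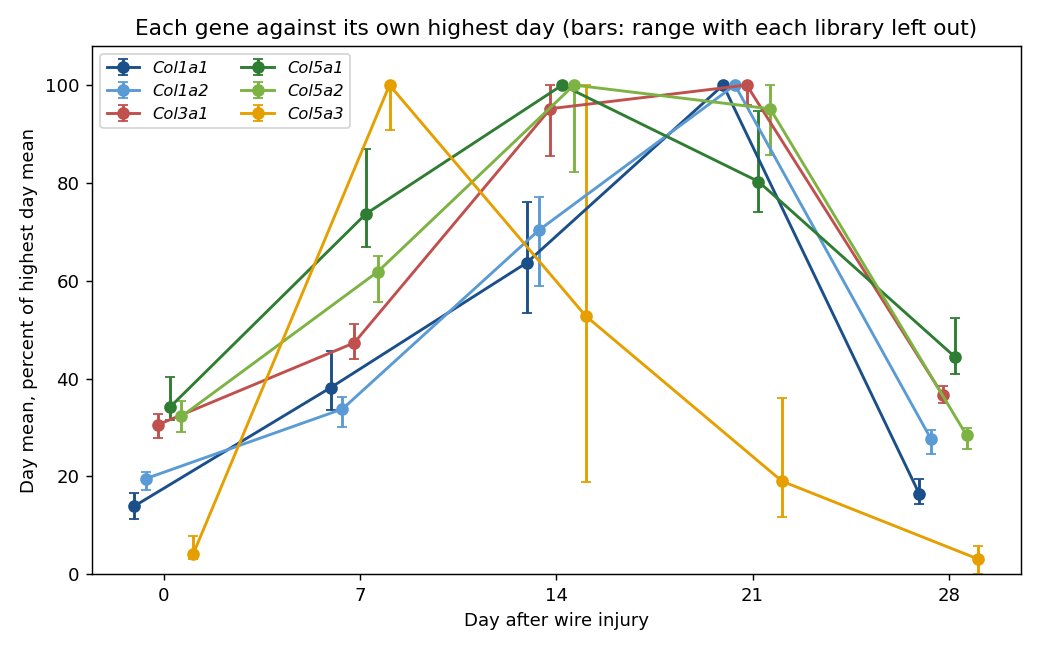
Day mean of each gene as a percentage of its own highest day mean (y axis, linear) by day (x axis), with bars for the range when each library is left out. On day 7 Col5a1 is at 73.7% and Col5a2 at 61.8% of their highest mean, above Col3a1 at 47.3%, Col1a1 at 38.1% and Col1a2 at 33.8%.

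Whether the types moved by different amounts was tested by ratios of summed counts within a library, which do not depend on its scaling. They were read across days and not as amounts of one type against another. The type III to type I ratio had geometric means of 0.390, 0.263, 0.296, 0.211 and 0.358 in the order of days 0, 7, 14, 21 and 28. It was 0.333, 0.452, 0.340 and 0.452 in the day 0 libraries and 0.298, 0.312, 0.185 and 0.277 on day 7, so that all day 7 libraries lay below day 0. On day 21 it was 0.133, 0.239, 0.325 and 0.193, also all below day 0. Both differences reached the smallest p that 4 against 4 libraries allow (exact two-sided permutation test, p = 0.0286 each), and neither passed after adjustment over 12 tests (adjusted p = 0.171).

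The type V to type I ratio had geometric means of 0.115, 0.110, 0.0842, 0.0509 and 0.0946 on the same days. Between days 7 and 0 it changed by -0.07 on the log2 scale (exact permutation p = 0.771, adjusted p = 0.842 over 12 tests). From day 7 (0.103, 0.109, 0.132 and 0.0976) to day 21 (0.0365, 0.0567, 0.0802 and 0.0404) it was lower in 4 of 4 libraries, 2.16-fold in the mean. The type V to type III ratio was 0.347, 0.350, 0.714 and 0.352 on day 7 and 0.275, 0.237, 0.247 and 0.209 on day 21, again without overlap. These tests between days 21 and 7 were chosen after the values were seen, and each gave an exact permutation p of 0.0286, the smallest possible, and an adjusted p of 0.0571 over 6 tests. Of the 21 planned tests of type ratios, 0 passed after adjustment and 2 had an unadjusted p under 0.05 by the exact permutation test. Most tests of a family would have to reach the smallest p of 0.0286 for any to pass. The count of 0 therefore does not show that the types moved alike.

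The ratio of the 2 chains of type I was separated between several days, although no planned test of it passed after adjustment. The Col1a2 to Col1a1 ratio was 0.849, 0.995, 1.099 and 1.07 on day 0 and 0.644, 0.573, 0.576 and 0.674 on day 7. It was 0.771, 0.768 and 0.762 on day 14, then 0.561, 0.741, 0.754 and 0.820 on day 21, and 1.13, 1.38 and 1.06 on day 28. Every library of days 7, 14 and 21 lay below every day 0 library, and day 28 lay above days 7, 14 and 21. The exact permutation p was 0.0286 for days 7 and 21 against day 0, for day 14 against day 7 and for day 28 against day 21, and the adjusted p was 0.114 over 12 tests and 0.0857 over 9 tests. Between days 28 and 7, a comparison added later, the ratio was 1.92-fold higher (exact permutation p = 0.0286, adjusted p = 0.0571 over 6 tests). Without day 21 replicate 1 the adjusted p of this permutation test was 0.0429. Neither day compared holds that library, so only the other tests of the family moved this value. In type V, the Col5a2 to Col5a1 ratio had a geometric mean of 1.41 on day 21 and 0.771 on day 28, with all libraries of day 28 lower (exact permutation p = 0.0286, adjusted p = 0.0857). Of the 21 planned tests of chain ratios, 0 passed after adjustment and 6 had an unadjusted p under 0.05 by the exact permutation test. With so few libraries the smallest reachable p is 0.0286, so no test can pass after adjustment unless most tests of its family reach that p.

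**Figure D4:**
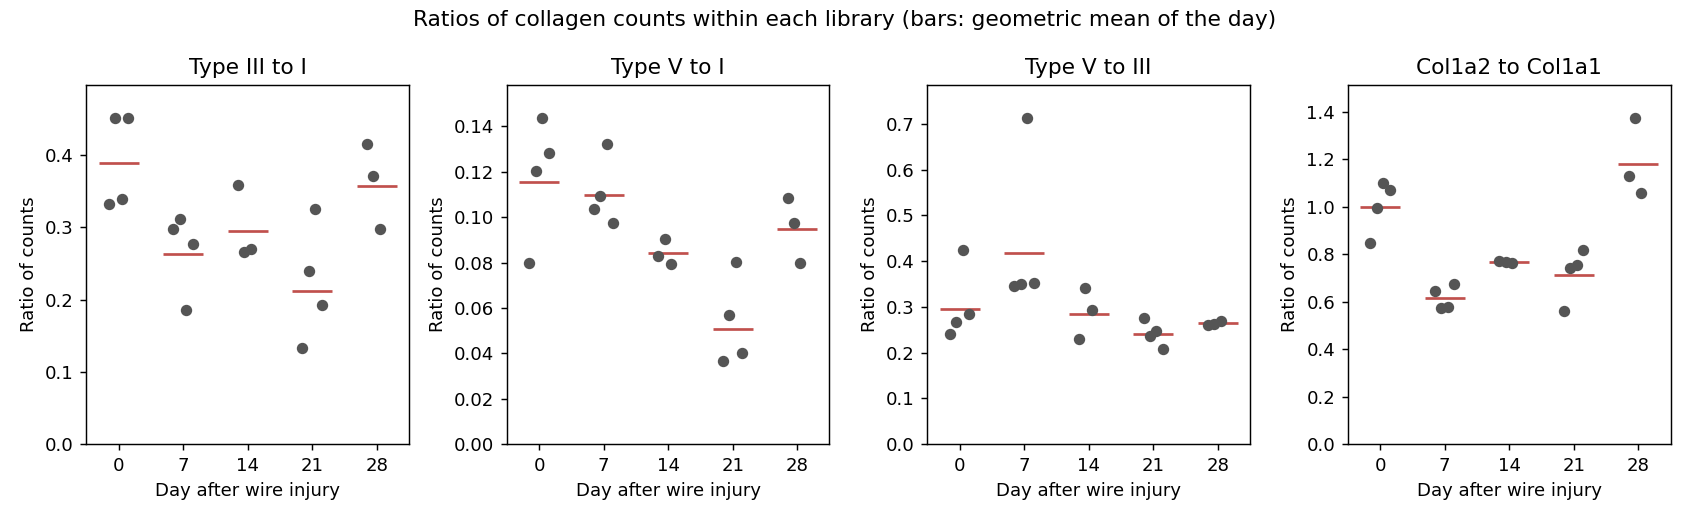
Ratios of summed counts within each library (y axes, linear and starting at 0) by day (x axis), with 1 point per library and a bar for the geometric mean of the day, for type III to I, V to I, V to III and Col1a2 to Col1a1. The Col1a2 to Col1a1 ratio has a mean of 0.999 at day 0, 0.615 at day 7 and 1.18 at day 28, and day 7 replicate 3 stands out in the V to III ratio at 0.714.

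Genes for the steps that turn these chains into fibrils were read from lists chosen from textbook knowledge, with earlier results of these data known. The counts and medians of these lists are therefore descriptions and not independent support. Among 25 tested genes of collagen processing (hydroxylases, chaperones, propeptidases and crosslinking oxidases), 5 were higher and 1 lower on day 7, 7 higher and 1 lower on day 14, 9 higher and 0 lower on day 21, and 0 changed on day 28 by edgeR. The list's median log2 fold change was 0.36, 0.56, 0.66 and -0.08 on these days, against 0.07, 0.05, 0.07 and -0.01 over all genes tested. Over all genes tested, 11.3% were higher and 8.53% lower on day 7, 4.80% and 1.42% on day 14, 5.92% and 2.93% on day 21, and 0.970% and 0.369% on day 28, shares that also apply to the lists that follow. With the mouse block, 1 of the list was higher and 0 lower on day 7, 2 and 0 on day 14, and 9 and 1 on day 21. DESeq2 called 1 of the list higher on day 28, and leaving out 1 library moved the number higher on day 14 between 3 and 8. Lox, the oxidase that crosslinks fibrils, rose from 401 ± 48.6 CPM (n = 4, SD) on day 0 to 1582 ± 415 CPM (n = 4, SD) on day 21 (log2 fold change 1.98, SE 0.27, adjusted p = 4.06e-05 from edgeR) and fell to 395 ± 149 CPM (n = 3, SD) on day 28 (adjusted p = 0.00128 against day 21). P4ha3, a catalytic subunit of the prolyl hydroxylase that stabilises the triple helix, was near absent on day 0 at 0.656 ± 1.31 CPM (n = 4, SD), with at most 2 counts in a library, and was at 39.5 ± 20.6 CPM (n = 4, SD) on day 7 (adjusted p = 8.29e-05 from edgeR). Adamts2, which removes the amino propeptide of fibrillar procollagens, rose between days 7 and 21 by a log2 fold change of 1.31 (SE 0.26, adjusted p = 0.00196), as did Col1a1, Col1a2 and Col3a1.

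Among 17 tested genes whose products bind fibrils or steer their assembly, 4 were higher and 5 lower on day 7, 8 higher and 1 lower on day 14, 7 higher and 0 lower on day 21, and 2 higher and 0 lower on day 28, with medians of -0.52, 1.39, 0.73 and -0.03. With each library left out in turn, the number higher on day 14 ran from 4 to 8. The mouse block left 3 higher and 3 lower on day 7, 4 and 0 on day 14, 7 and 0 on day 21, and 0 on day 28. Among all genes tested, the shares higher and lower were 11.3% and 8.53% on day 7, and 4.80% and 1.42% by day 14. Lum, the small proteoglycan lumican that coats fibrils, rose from 119 ± 52.2 CPM (n = 4, SD) on day 0 to 562 ± 347 (n = 4, SD) on day 7 and 1837 ± 379 (n = 4, SD) on day 21 (log2 fold change 3.95, SE 0.46, adjusted p = 6.31e-06 from edgeR). On day 28 Lum was at 558 ± 100.4 CPM (n = 3, SD) and was still called higher than on day 0 (adjusted p = 0.0133), a call lost without day 0 replicate 2 or 3 (adjusted p up to 0.0523) and with the mouse block (adjusted p = 0.237), with 6.35e-13 to 0.237 over all alternatives. Prelp, a proteoglycan of the same family, moved the other way and fell from 732 ± 94.4 CPM (n = 4, SD) before injury to 202 ± 150.1 on day 7 (n = 4, SD), a log2 fold change of -1.85 with SE 0.34 and adjusted p = 3.37e-04 by edgeR. Col12a1, a collagen that sits on the surface of type I fibrils, was at 1.79 ± 2.84 CPM (n = 4, SD) on day 0 and 86.3 ± 74.7 (n = 4, SD) on day 7 (adjusted p = 3.3e-04).

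Of 15 tested genes of fibril turnover, 8 were higher and 1 lower on day 7, 7 higher and 0 lower on days 14 and 21, and 0 changed on day 28 by edgeR and by DESeq2. The medians were 2.01, 2.16, 1.82 and 0.36, and the number higher on day 14 ran from 4 to 7 with each library left out. With the mouse block, 5 were higher and 1 lower on day 7, 4 and 0 on day 14, and 6 and 0 on day 21. Timp1, an inhibitor of matrix metalloproteinases, was at 55.5 ± 18.1 CPM (n = 4, SD) on day 0, 1411 ± 934 (n = 4, SD) on day 7 and 286 ± 82.7 (n = 4, SD) on day 21. Its log2 fold change was 4.66 on day 7 (SE 0.47, adjusted p = 1.7e-07 from edgeR), so this gene had its highest mean on the same day as Col5a3. Mmp2, a gelatinase that also cleaves type V collagen, rose from 168 ± 69.6 CPM (n = 4, SD) on day 0 to 814 ± 67.4 (n = 3, SD) on day 14 (log2 fold change 2.28, SE 0.30, adjusted p = 2e-05), as did Mrc2, an uptake receptor for collagen, by 2.17 (SE 0.33, adjusted p = 1.76e-04).

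The 8 tested collagen receptors split in direction, with 3 higher and 3 lower on day 7, 3 and 1 on day 14, 2 and 2 on day 21 and 1 and 1 on day 28, where 11.3% and 8.53% of all genes tested were higher and lower on day 7 and 4.80% and 1.42% on day 14. The mouse block left 1 and 2 on day 7, 2 and 0 on day 14, 2 and 2 on day 21, and 0 and 0 on day 28. Itga11, the integrin chain for fibrillar collagen on mesenchymal cells, had 0 counts in all libraries of days 0 and 28 and stood at 11.3 ± 10.3 CPM (n = 4, SD) on day 7, 36.2 ± 27.9 (n = 3, SD) on day 14 and 49.1 ± 19.03 (n = 4, SD) on day 21 (adjusted p = 5.48e-04 against day 0 from edgeR). Itga1, the partner chain of the collagen receptor of smooth muscle, fell from 214 ± 33.8 CPM (n = 4, SD) on day 0 to 60.2 ± 18.2 (n = 4, SD) on day 7 (log2 fold change -1.82, SE 0.27, adjusted p = 3.07e-05). Of 12 genes of the TGF-beta and PDGF pathways, known inducers of collagen, 1 (Pdgfb) was higher and 3 were lower on day 7, 2 were higher on day 21, and 0 changed on days 14 and 28 by edgeR and by DESeq2. With the mouse block 0 were higher and 1 lower on day 7, and 1 was higher on day 21. Tgfb3 fell by 1.53 on the log2 scale on day 7 (SE 0.33, adjusted p = 0.00163). Pdgfa rose by 1.26 on day 21 (SE 0.27, adjusted p = 0.00439), a call lost with the 2 libraries highest in Col1a1 left out (adjusted p = 0.0654, with 3.64e-04 to 0.0654 over all alternatives).

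Of the other fibrillar collagen genes, Col24a1 was not tested, and 2 of the 4 tested, Col2a1 and Col11a1, were higher than on day 0 on days 7, 14 and 21. Both are known from cartilage. The Col2a1 call was lost on day 7 without day 0 replicate 2 (adjusted p = 0.0504 from edgeR, with 9.9e-29 to 0.0504 over all alternatives), on day 14 without any one day 0 library or day 14 replicate 2 (adjusted p up to 0.144, with 3.19e-34 to 0.144) and on day 21 without day 21 replicate 1 (adjusted p = 0.367, with 9.17e-45 to 0.442). Col11a1, whose chain also joins type V molecules, was at 18.6 ± 30.2 CPM (n = 4, SD) on day 7, 55.6 ± 84.8 (n = 3, SD) on day 14 and 22.2 ± 23.1 (n = 4, SD) on day 21, against at most 2 counts in a day 0 library. Its SD was above its mean on these days. The day 14 call (adjusted p = 0.0139 from edgeR) was lost without day 14 replicate 2 (adjusted p = 0.531, and 2.2e-07 to 0.531 over all alternatives). The day 7 call of Col11a1 (adjusted p = 0.0369) was lost without day 0 replicate 2, 3 or 4 (adjusted p up to 0.0966, and 2.06e-04 to 0.556 over all alternatives), and the day 21 call (adjusted p = 0.0432) without these or day 21 replicate 2 or 4 (adjusted p up to 0.114, and 8.39e-05 to 0.279 over all alternatives). With the mouse number as a block, 1 of the 4 was higher on each of days 7, 14 and 21. Col11a2 and Col27a1 were not called on any day by edgeR with the settings used here, and Col27a1 came closest on day 21 (log2 fold change 1.59, adjusted p = 0.0608). Other settings called 0 to 4 of the 4 higher on day 21, and on day 28 DESeq2 called 1.

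Genes with the pattern most like each collagen were taken as the 3 with the highest Pearson correlation of log2 CPM over the 18 libraries. For Col1a1 these were Itga11 (r = 0.94), Mmp2 (0.91) and Fn1 (0.90), and for Col1a2 they were Itga11 (0.93), Cd248 (0.89) and Mmp2 (0.89). Col3a1 was followed most closely by Mmp2 (0.95), Mrc2 (0.92) and Fbn1 (0.91), and Col5a2 by Itga11 (0.91), Fbn1 (0.90) and Col12a1 (0.89). Col5a1 had Fn1 (0.94), Rflnb (0.93) and Col6a3 (0.91). Col5a3 shared none of its 3 genes with the others, Emp1 (0.91), Ddah1 (0.90) and Clec4a3 (0.89). On days 0 and 28, Ddah1 had means of 0.897 and 0.479 CPM and Clec4a3 of 0 and 1.91 CPM. Like Col5a3 they were near 0 there, so these r rest partly on libraries with few counts. The same limit applies to Itga11, Rflnb and Col12a1. On days 0 and 28 Itga11 had means of 0 CPM, Rflnb of 5.10 and 6.60 CPM and Col12a1 of 1.79 and 6.76 CPM. By Spearman correlation, 3 of the 3 genes were the same for Col3a1, 2 for Col5a1 and Col5a2, 1 for Col1a1 and Col5a3, and 0 for Col1a2. These are descriptions over libraries that share days, and each r rests largely on the differences between days. Among the collagens themselves, r was 0.96 between Col1a1 and Col1a2, 0.52 between Col1a1 and Col5a3 and 0.36 between Col1a2 and Col5a3.

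Cell type markers moved over the same days. Markers of smooth muscle, the main cell type of the media, were present in all libraries, and none of the 7 was at 0 in all libraries of a day. Before injury their summed level was 31513 to 36876 CPM, and it was 1489.7 to 6974 by day 7, 7248 to 22949 by day 14, 8283 to 21589 by day 21 and 19945 to 28124 by day 28. Over all genes tested, 11.3% were higher and 8.53% lower on day 7, and 4.80% and 1.42% on day 14. The shares were 5.92% and 2.93% on day 21 and 0.970% and 0.369% on day 28, also for the markers below. Of the 6 smooth muscle markers tested, 6 were lower on day 7, and 3 on each of days 14 and 21. So on day 7 all 6 collagen genes were higher while the contractile markers were lower. The 10 adventitial fibroblast markers summed to 3142 to 3986 CPM on day 0 and 1366 to 2238 on day 7, with 1 higher and 6 lower. On day 14 they summed to 2409 to 2863, with 1 higher and 2 lower, and on day 21 to 1942.2 to 3238, with 2 higher and 3 lower. By day 28 the sums were 2190 to 2646, with 0 higher and 0 lower. The part of either change in the collagen levels was not tested.

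Macrophage markers had their highest sums on day 7, as did Col5a3, from 102.8 to 521 CPM before injury to 3878 to 5838 by day 7, then 996.5 to 2133 by day 14, 1549.6 to 3035 by day 21 and 708 to 1002 by day 28. All 9 were higher on days 7, 14 and 21 and 1 on day 28. Chondrocyte markers, which include Col2a1 and Col11a1, summed to 22.4 to 137 CPM on day 0, when Col2a1, Matn1 and Chad were at 0, and to 413 to 1699.7 on day 21, with 6 of 6 tested higher. Proliferation markers had a median sum of 27.4 CPM before injury, 356 by day 7 and 76.9 by day 21. Those of endothelial markers ran from 811 on day 0 to 1066 on day 7, those of red blood cells from 33.1 to 1875 and those of nerve sheath from 143 to 277. Neutrophil markers had a median sum of 319 CPM on day 7 and at most 21.2 on the other days, with single libraries at 184 (day 14 replicate 2), 503 (day 21 replicate 3) and 276 (day 28 replicate 3). Adipocyte markers had medians of 62.6 to 344 and T cell markers of at most 31.95. Skeletal muscle markers had medians of at most 10.8, but summed to 344 CPM in day 14 replicate 2 and 259 in day 21 replicate 1. These 2 libraries, the highest in Col1a1 of their days, also had the highest chondrocyte sums of their days (1165 and 1699.7 CPM). Their part in the collagen values was not tested.

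A further feature concerns the untranslated ends of these transcripts. The miR-29 family is a set of microRNAs well known for binding collagen mRNAs through the seed, bases 2 to 8 of the microRNA. The mature sequences (RefSeq) are shown because the 3 members have 1 seed, in capitals.
mmu-miR-29a-3p: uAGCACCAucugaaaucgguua
mmu-miR-29b-3p: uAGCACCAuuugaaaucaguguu
mmu-miR-29c-3p: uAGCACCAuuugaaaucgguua
The site letters TGGTGCT occurred in the 3′ untranslated region of the canonical transcript in 5 of the 6 genes, with 4 matches in Col5a1, 3 in Col5a3, 1 each in Col1a1, Col3a1 and Col5a2 and 0 in Col1a2. Of 9938 tested genes with such a region, 17.7% had a match and 3.19% had 2 or more. Among the 4246 with regions of 794 to 2690 bases, the range of the 6 collagens, the shares were 15.4% and 2.03%. Examples are shown in 30 bases around the match, which is in capitals, including the first pair in Col5a1, which lie 30 bases apart.
Col1a1, chr11:94843353-94843382, plus strand: gaaggaatttcTGGTGCTatagaagctgag
Col3a1, chr1:45388131-45388160, plus strand: aaatgtctcaaTGGTGCTataataaataaa
Col5a1, chr2:27928005-27928034, plus strand: ctatgaacattTGGTGCTgaattttttaca
Col5a1, chr2:27928035-27928064, plus strand: cttgtctcttgTGGTGCTatgtgtccggag
Col5a3, chr9:20682065-20682094, minus strand: catgggctcctTGGTGCTgaggctctgagg
MicroRNAs were not measured in these libraries, the search was chosen with the collagen results known, and a match describes letters only.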

How the data were processed

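MACE-seq reads of 18 libraries had been cleared of PCR duplicates by their molecular identifiers, quality-trimmed and quantified with Salmon 1.9.0 on mm39 by the authors, per the submitters' processing notes and methods, and were deposited as estimated counts per gene in whole numbers. A second deposited table holds signal values that the authors normalised with DESeq2 1.36.0, which were used as an alternative only. The annotation release and the strand setting are not given in the sources used here, and 0 columns of per-sample values were left unused.

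The estimated counts, 440675 to 878310 per library with a median of 659166, were taken as deposited. In R 4.3.3, edgeR 4.0.16 (filterByExpr, TMM, 1 quasi-likelihood fit over 5 days, 13 residual degrees of freedom) tested 10312 of 35655 genes with Benjamini-Hochberg adjustment, called at 0.05. Standard errors were taken from the F statistic. Ratios used counts plus 0.5 and exact two-sided permutation tests. Correlations used log2 CPM with a prior count of 2. The steps were tested on simulated data.

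Genes named beside the 6 collagens were the other fibrillar collagens, up to 3 genes per list, comparison and direction with the smallest p among those called, and the 3 most alike to each collagen; the text gives examples of these. The members and lists were chosen with earlier results of these data known. Alternatives were another normalisation (RLE, total counts), other filters, a stricter threshold, 2 days alone, blocks, DESeq2 1.42.0, limma 3.58.1 on log2 of the normalised values plus 1, and each library left out. Leaving out the 2 libraries highest in Col1a1, and ratios of days 21 and 28 to day 7, were added after the values were seen. Same-numbered replicates did not deviate together (33 pairs, correlation -0.13 to 0.20), nor did the 3 pairs of libraries with 1 mouse number (-0.01 to 0.06). Whether a shared mouse number marks the same animal is not stated beyond the labels, and the fit with it as a block is given beside the counts it changed.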

Additional observations from a re-analysis of the deposited data

Results flagged for a closer look

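Of 39 groups of 4 libraries examined, 3 held a library whose distance from its nearest neighbour took up a larger part of the group's whole range than Dixon's 95% limit for 4 values allows. Chance gives about 1 in 20 such groups. Col1a1 was at 3953 CPM in day 0 replicate 1, against 2031 to 2143 in the other day 0 libraries. The sum of the 6 collagen genes was 10328 CPM in the same library, against 6368 to 6777 in the others. The type V to type III ratio was 0.714 in day 7 replicate 3, against 0.347 to 0.352 in the other day 7 libraries. This library had the lowest Col3a1 of its day (2249 CPM) and also the highest Col5a3 (277 CPM). The part of each gene in the ratio was not tested.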

How the results depend on the processing

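Of 60 results (6 genes in 10 comparisons), 60 kept direction and call with RLE factors and with the stricter count filter, 59 with total counts, with library sizes that left out the collagens and with DESeq2, 55 without a filter and with limma, 58 without the 2 libraries highest in Col1a1, 52 at an adjusted p under 0.01, and 50 with the mouse block (7 calls lost, 3 signs turned). With only 2 days in the fit 45 of 55 did. The number of collagen genes called between days 7 and 0 was 2 with the mouse block, against 6. Between days 14 and 7 it was 0 at the stricter threshold and with only 2 days fitted, and 0 to 2 with each library left out. Between days 21 and 7 it was 5 with only 2 days fitted. Between days 28 and 14 it was 3 at the stricter threshold, 1 with only 2 days fitted, and 3 to 6 with each library left out. The fewer libraries of a fit with 2 days leave fewer degrees of freedom; otherwise the cause was not tested.

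Signs turned only for differences that were not called. With the mouse block, the log2 fold change between days 28 and 0 was -0.10 for Col1a1 and -0.0074 for Col3a1, and that between days 21 and 14 was 0.14 for Col5a2. With each library left out, Col5a3 ran from -4.56 to 0.22 (days 28 and 0) and from -2.32 to 0.15 (days 14 and 7), Col3a1 from -0.054 to 0.23 and Col5a2 from -0.23 to 0.29 (days 21 and 14), and Col5a1 from -0.018 to 0.28 (days 21 and 7).

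With the replicate number as a block, 57 of 60 results were unchanged, and the calls lost were Col5a3 between days 14 and 0 (log2 fold change 3.01, adjusted p = 0.150 from edgeR), Col5a1 between days 28 and 7 (-0.68, adjusted p = 0.0878) and Col5a1 between days 28 and 14 (-1.15, adjusted p = 0.0609). The replicates share only a number. Groups of 3 or 4 libraries and the few counts of Col5a3 limit what could be detected.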
